A study of Homo sapiens with 62 samples.

Results

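The collagen genes are described here across 62 polyA RNA libraries of the human embryonic stem cell line WIBR3 and of organoids grown from it. They were chosen by name, as every row of the expression table whose symbol is COL, a number, A and a number. The rule found 46 rows with 44 distinct symbols among 37415 genes, COL11A2 being listed in 3 rows. Of the 46 rows, 40 reached 1 TPM (a transcript level per gene length, scaled to the library total) in at least 1 library, 18 reached it in all 62, and 6 never did: COL8A1, COL4A3, COL6A5 and the 3 rows of COL11A2. The study asked what PF-127 (a poloxamer that gels on warming) does to stem cells, whether its culture system makes several organoid types reliably, and which genes the long non-coding RNA NEAT1 affects in each tissue.

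The 62 libraries form 31 groups of 2, all of the WIBR3 line. NEAT1-/- cells came as 2 knockout lines, clone 1 and clone 2, each a single clone. Each clone and its control (genotype CTR) was sampled as undifferentiated stem cells (hESC, day 0), as cortical organoids at day 19, nephron organoids at day 13, hepatic organoids at day 21 and lung organoids at day 19, all in the format PN96. Organoids of genotype WT were sampled as cortical organoids in the formats Chip (day 54), PN96 (day 53) and SPIN (day 60), as hepatic organoids in the formats Chip (day 17) and PN96 (days 17 and 21), as lung organoids in PN96 (day 20) and as nephron organoids in PN96 (day 7). WT hESC were sampled with PF-127 (treatment PN96) and without it (treatment NT96) at 0, 1, 4 and 24 hours. The labels do not define PN96, NT96, Chip or SPIN, nor how CTR differs from WT. They also do not say whether replicate libraries are separate cultures, so each p-value speaks for the spread of the sequenced libraries, which may be technical.

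Collagens are secreted proteins built from chains wound into a triple helix, and they are the main structural proteins of the extracellular matrix. Fibrillar collagens (types I, II, III, V and XI) form the fibres of connective tissue and cartilage and are made mostly by mesenchymal cells such as fibroblasts and chondrocytes. Collagen IV forms the sheet-like network of basement membranes under epithelia and around vessels, and collagen VI forms beaded filaments near cell surfaces. A trimer needs its chains in fixed proportions: type I is made of COL1A1 and COL1A2, and the common type IV network of COL4A1 and COL4A2. Newly made chains are hydroxylated and folded in the endoplasmic reticulum, trimmed outside the cell, crosslinked by lysyl oxidases and degraded by matrix metalloproteinases.

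TPM values keep no depth, so the depth behind each value is unknown. All libraries sum to the same total, so a TPM is a level relative to all other transcripts. Pairs of libraries of 1 group correlated at 0.969 to 0.993. NEAT1 itself was at 0.0207 to 0.869 TPM in the knockout organoids, 0 to 0.0857 TPM in knockout hESC, 5.47 to 44.3 TPM in CTR organoids and 1.78 to 1.95 TPM in CTR hESC, as the labels say. The organoid labels were checked against markers: hepatic CTR libraries had 5739 and 7447 TPM of AFP and cortical CTR libraries 111 and 144 TPM of PAX6. In nephron CTR libraries PAX2 was at 9.87 and 14.7 TPM and WT1 at 11.2 and 16.5 TPM, while the podocyte gene NPHS1 was at 1.74 and 0.830 TPM and LHX1 at 0.174 and 0.340 TPM. In lung CTR libraries the lung and thyroid factor NKX2-1 was at 1.70 and 0.205 TPM, so the lung label was not borne out by this marker. Levels of the other lung and foregut genes listed (FOXA2, EPCAM and CDH1) in these libraries are not given here. SOX2, listed for neural progenitors and pluripotency, was at 541 and 433 TPM in them. The SPIN cortical pair stood apart, since its libraries differed from each other by several fold in the summed collagen level (505 and 3249 TPM).

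Nephron and hepatic organoids carried several times more collagen RNA than the other cell types. The 46 rows summed to 6124 and 8326 TPM in the nephron CTR libraries and 6749 and 5129 TPM in the hepatic ones. The sums were 1050.0 and 717 TPM in lung, 727 and 1004 TPM in cortical organoids and 802 and 730.5 TPM in hESC. All 4 nephron and hepatic libraries therefore lay above all 6 others. COL3A1, the sole chain of type III collagen in loose connective tissue, made up 38.4% of the sum in nephron and 32.2% in hepatic organoids. COL6A1, a collagen VI chain, was the most abundant collagen in lung (20.8% of the sum), cortical organoids (17.3%) and hESC (25.4%). Because these are bulk samples, fewer cells of a type and less RNA per cell cannot be told apart.

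**Figure D1:**
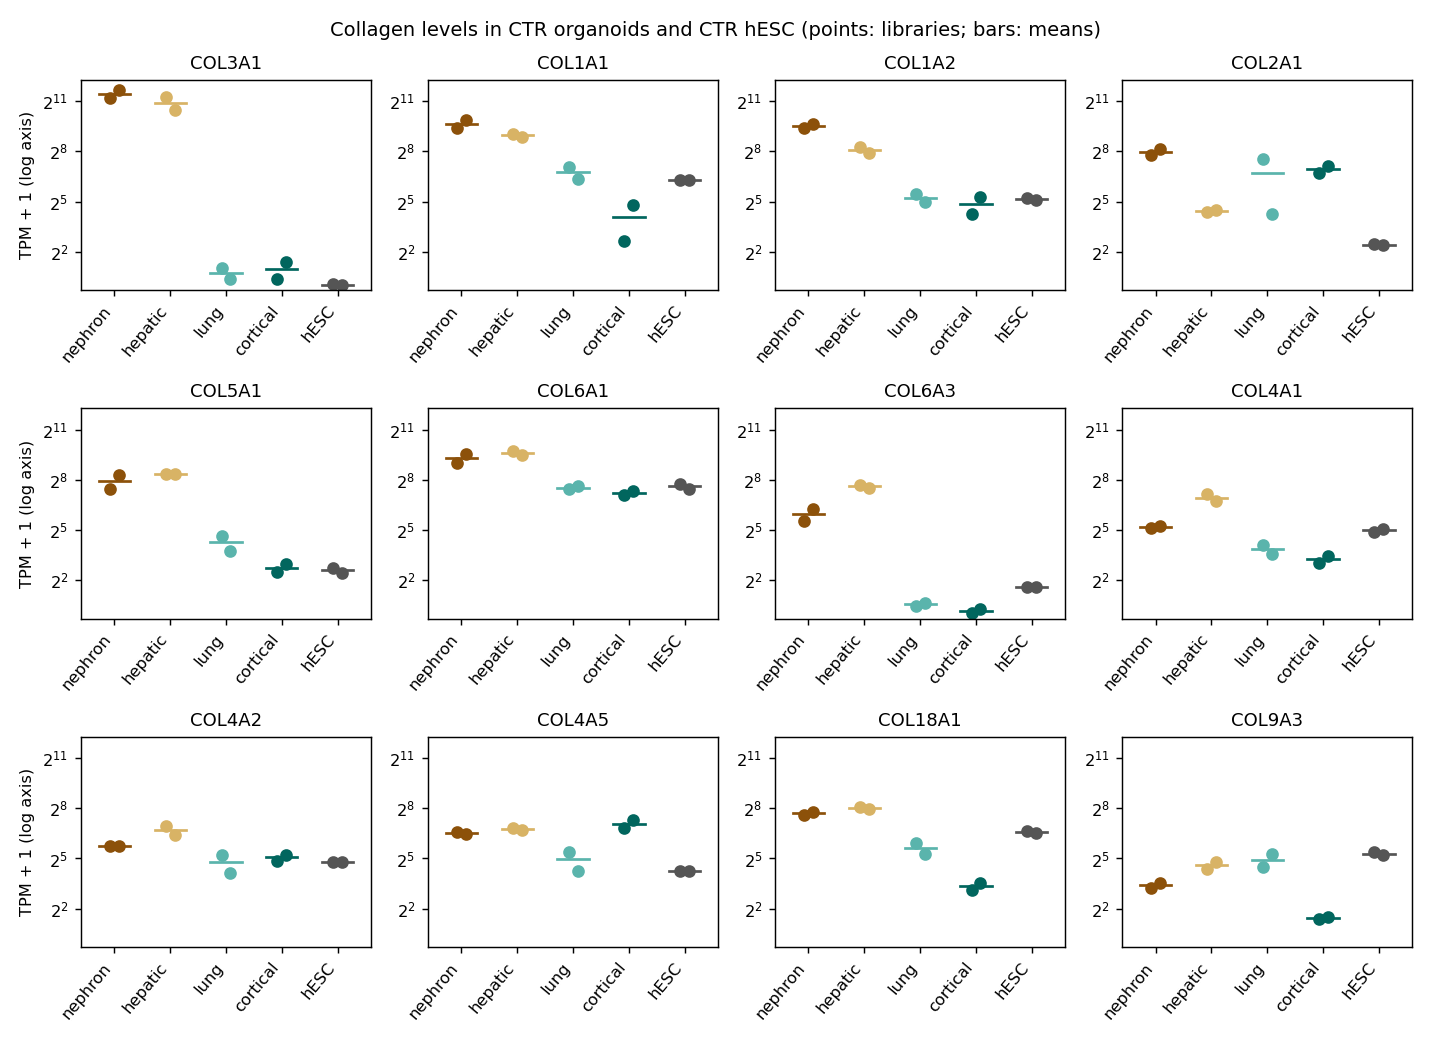
Level of the main collagen chains in each CTR library of the 4 organoid types and hESC, on a log axis of TPM + 1. Points are libraries (n = 2 a group) and bars their means; COL3A1 lies above 100 TPM in all nephron and hepatic libraries and under 2 TPM in all others.

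Each CTR organoid type was compared with CTR hESC, in 1 fit of 10 libraries with limma on log2(TPM + 1); folds given below are on that scale and understate the change of low genes. A gene was called at a Benjamini-Hochberg adjusted p under 0.05 over 22839 genes kept by a filter (1 TPM or more in 2 or more of the 10 libraries), which 37 collagens passed. The 4 comparisons share the same hESC libraries. In nephron organoids 30 of the 37 were called, 25 higher and 5 lower, where 52.5% of all genes were called and 36.7% were called higher. The median log2 change was 1.61 over the collagens and 0.37 over all genes. In hepatic organoids 30 were called, 28 higher and 2 lower, where 43.3% of all genes were called and 25.1% were called higher, with medians of 1.90 and 0.08. In cortical organoids 25 were called, 9 higher and 16 lower, where 52.5% of all genes were, with medians of -0.38 and 0.03. In lung organoids 11 were called, 6 higher and 5 lower, where 39.8% of all genes were, with medians of 0.05 and 0.01. The collagen share called was above the background in nephron and hepatic organoids, above it by less in cortical organoids and below it in lung organoids. Size factors in place of the TPM total lowered the median of all genes by 0.33 in the nephron comparison, where 23 collagens were then higher and 5 lower and the share of calls that were higher over all genes was 50% in place of 69.9%.

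Of the 10 fibrillar chains tested, 8 were called higher and 1 lower in nephron organoids, where 36.7% of all genes were called higher. In hepatic organoids 6 were higher and 1 lower, where 25.1% of all genes were called higher. Over all genes, too, more calls were higher than lower: 69.9% of the calls in nephron and 58% in hepatic organoids. With size factors these shares were 50% and 52.6%. COL3A1 (chromosome 2, 188974320 to 189012746, plus strand) was at 2328 and 3222 TPM in nephron, 2414 and 1405 in hepatic, 1.01 and 0.312 in lung and 0.301 and 1.65 in cortical organoids, and at 0.0434 and 0 TPM in hESC. Its 4 nephron and hepatic values stood far above the other 6, and no group of these types overlapped hESC. With hESC near 0, no fold is given: the change was 11.39 ± 0.38 (SE) on the log2 scale in nephron (adjusted p = 1.6e-06) and 10.82 ± 0.38 in hepatic organoids (adjusted p = 1.1e-06). In cortical and lung organoids COL3A1 was not called. COL3A1 passed the filter through organoid libraries and not through hESC, so its calls add little to the values themselves.

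COL1A1 (chromosome 17, 50183289 to 50201632, minus strand) and COL1A2 (chromosome 7, 94394561 to 94431232, plus strand) encode the chains of type I collagen, the main fibre of bone, skin and tendon. COL1A1 was at 669.8 and 956 TPM in nephron, 531 and 461 in hepatic, 132 and 80.1 in lung and 5.30 and 26.7 in cortical organoids, and at 76.7 and 77.0 TPM in hESC. Nephron and hepatic values lay above all hESC values, cortical values lay below them, and the lung pair was above both. COL1A1 was 10.3-fold higher in nephron (limma adjusted p = 0.0014), 6.37-fold higher in hepatic (adjusted p = 0.0053) and 5.90-fold lower in cortical organoids (adjusted p = 0.005) than in hESC, and was not called in lung. COL1A2 was at 679.9 and 786 TPM in nephron, 304 and 237 in hepatic, 43.1 and 29.997 in lung and 18.4 and 37.5 in cortical organoids, and at 36.0 and 33.5 TPM in hESC. Its cortical pair straddled the hESC pair, while its nephron and hepatic pairs lay above it. COL1A2 rose 20.5-fold in nephron (adjusted p = 1.7e-05) and 7.54-fold in hepatic organoids (adjusted p = 0.00014).

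COL2A1 (chromosome 12, 47972965 to 48004554, minus strand), the chain of type II collagen of cartilage and notochord, rose in 3 organoid types. It was at 219.8 and 276 TPM in nephron, 19.9 and 21.5 in hepatic, 187 and 18.3 in lung and 102 and 138 in cortical organoids, and at 4.55 and 4.22 TPM in hESC. Every organoid library was above both hESC libraries, and the lung libraries differed widely from each other. COL2A1 was 46.0-fold higher in nephron (limma adjusted p = 0.00069), 22.2-fold in cortical (adjusted p = 0.0018) and 11.2-fold in lung organoids (adjusted p = 0.0093), and was not called in hepatic organoids (2.01 ± 0.81 on the log2 scale, adjusted p = 0.074). COL5A1, a chain of the type V collagen that starts type I fibrils, was at 172 and 317 TPM in nephron, 325 and 320.5 in hepatic, 23.9 and 12.6 in lung and 4.53 and 6.87 in cortical organoids, and at 5.62 and 4.34 TPM in hESC. COL5A1 rose 39.4-fold in nephron, 54.5-fold in hepatic and 3.10-fold in lung organoids (adjusted p = 1.4e-05, 9.9e-06 and 0.0063), and its cortical pair overlapped the hESC pair. COL5A2, its partner chain, rose 13.9-fold in nephron and 12.8-fold in hepatic organoids (adjusted p = 4e-04 and 0.00055), and COL11A1, a chain of the type XI collagen found with type II, rose 10.7-fold in nephron organoids (adjusted p = 1.4e-05). COL5A3 went the other way in both: it was 3.79-fold lower in nephron and 2.16-fold lower in hepatic organoids (adjusted p = 0.00099 and 0.017).

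Of the collagen VI genes, 4 of the 4 tested were called higher in both nephron and hepatic organoids, where 36.7% and 25.1% of all genes were called higher. COL6A6, 1 of the 4, reached 1 TPM in 15 of the 62 libraries. It may have passed the filter only through libraries in which it was high, so its calls add little to this count. COL6A1 (chromosome 21, 45981737 to 46005050, plus strand) was abundant everywhere, at 514 and 742 TPM in nephron, 859 and 730.0 in hepatic, 172 and 195 in lung and 137 and 162 in cortical organoids, and at 214 and 176 TPM in hESC. COL6A3, the large chain that completes the common collagen VI trimer, was at 45.2 and 75.5 TPM in nephron, 203 and 185 in hepatic, 0.360 and 0.565 in lung and 0.00590 and 0.191 in cortical organoids, and at 1.99 and 1.95 TPM in hESC. COL6A1 was thus at more than 100 TPM also in the types in which COL6A3 was under 2 TPM. COL6A3 rose 20.0-fold in nephron (limma adjusted p = 9.2e-06) and 65.7-fold in hepatic organoids (adjusted p = 2.9e-06), and fell 2.71-fold in cortical (adjusted p = 0.0017) and 2.04-fold in lung organoids (adjusted p = 0.013). The ratio of COL6A3 to COL6A1 ranged, over the 30 groups in which both libraries had COL6A3 above 0, from 0.000445 to 0.458.

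Of the 9 fibril-associated collagens tested, 2 were higher and 5 lower in cortical organoids than in hESC, where 52.5% of all genes were called. Of the 4 transmembrane collagens 0 were higher and 2 lower, and of the 2 multiplexins (COL15A1 and COL18A1) 1 was lower. COL14A1, a fibril-associated collagen, was 17.6-fold lower (limma adjusted p = 0.00011), COL9A3, a type IX chain of cartilage, 14.3-fold lower (adjusted p = 2e-05), and COL23A1, a transmembrane collagen, 10.5-fold lower (adjusted p = 6.2e-05). COL18A1, the basement membrane proteoglycan whose end is endostatin, was at 193 and 221 TPM in nephron, 266 and 243 in hepatic, 59.4 and 37.6 in lung and 7.69 and 10.4 in cortical organoids, and at 97.2 and 89.4 TPM in hESC. The cortical pair was the lowest and did not overlap any other pair. COL18A1 fell 9.47-fold in cortical organoids (adjusted p = 1.3e-05) and 1.95-fold in lung organoids (adjusted p = 0.0075), and rose 2.20-fold in nephron (adjusted p = 0.0024) and 2.71-fold in hepatic organoids (adjusted p = 9e-04). COL22A1, found at tissue junctions, rose 14.1-fold in cortical, 19.1-fold in nephron and 7.80-fold in hepatic organoids (adjusted p = 3.3e-05, 2.2e-05 and 0.00016). In lung organoids COL7A1, the anchoring fibril collagen of epithelia, rose 5.17-fold (adjusted p = 0.00017) and COL9A2 4.12-fold (adjusted p = 0.0035). COL9A3 and COL18A1 each overlap a gene on the opposite strand, as do 20 of the 44 members with a GENCODE 29 position. The strand setting of the counting is not given in the sources used here, so reads of such overlaps cannot be told apart.

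**Figure D2:**
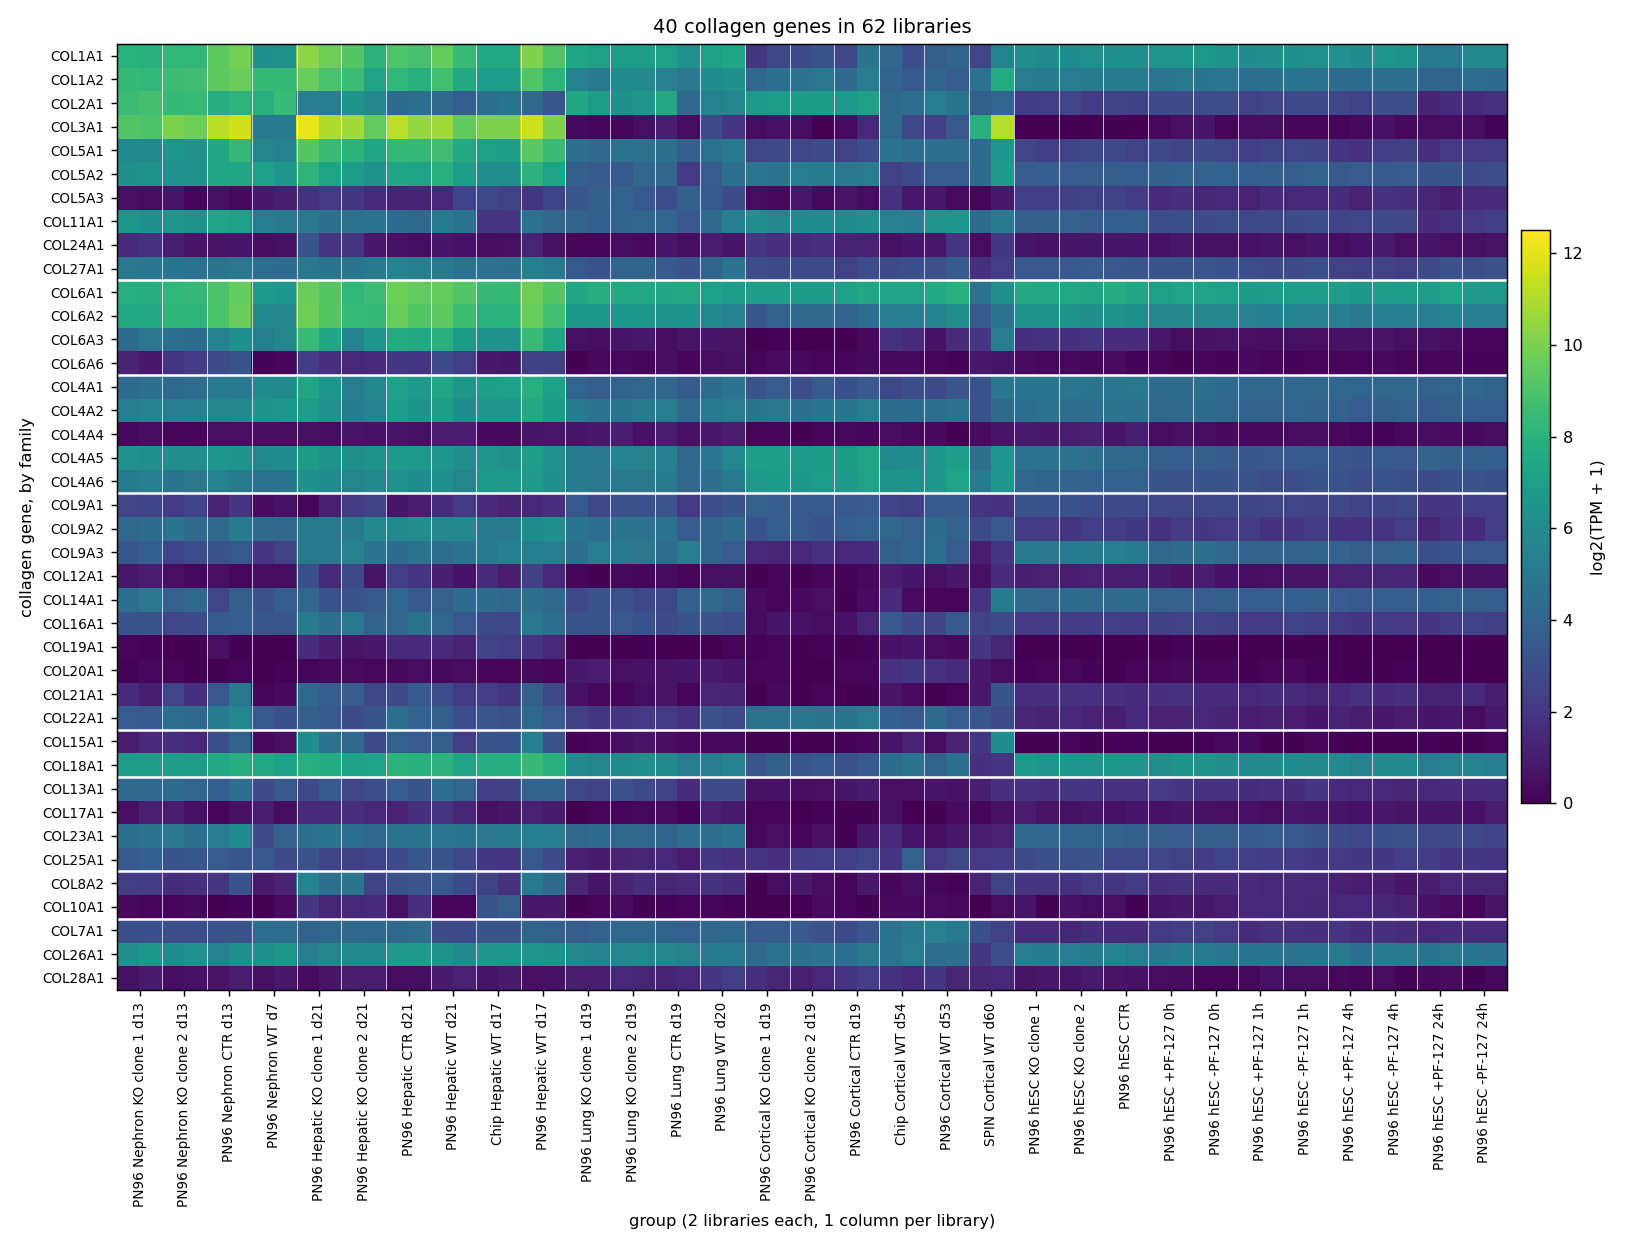
Heat map of log2(TPM + 1) of the 40 collagen genes that reached 1 TPM (rows, grouped by family) in all 62 libraries (columns, grouped by cell type, format and genotype). The COL3A1 and COL6A3 rows are higher in the CTR nephron and hepatic columns than in the CTR lung, cortical and hESC columns.

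Genes that build, trim, bind and degrade collagen were called in nephron, hepatic and cortical organoids, where 52.5%, 43.3% and 52.5% of all genes were called. Of the 21 folding and modification genes, 15 were higher and 0 lower in nephron organoids, and 13 were higher and 0 lower in hepatic organoids. Among them the lysyl hydroxylase PLOD2 rose by 2.78 ± 0.17 (SE, log2 scale, limma adjusted p = 1.2e-05) in nephron and by 2.99 ± 0.17 in hepatic organoids (adjusted p = 8.8e-06). Of 13 processing and crosslinking genes tested, 8 were higher and 3 lower in nephron and 7 higher and 1 lower in hepatic organoids. LOX, a lysyl oxidase, rose by 3.64 ± 0.25 and 4.89 ± 0.25 (adjusted p = 1.6e-05 and 4.7e-06). In cortical organoids 4 folding genes were higher and 6 lower, and 4 processing genes were higher and 4 lower. Of 9 degradation genes, 6 were higher and 1 lower in nephron, 7 higher and 0 lower in hepatic and 4 higher and 2 lower in cortical organoids. Of 6 receptors, 4 were higher and 1 lower in nephron, 4 higher and 0 lower in hepatic and 2 higher and 1 lower in cortical organoids. Markers of mesenchyme moved the same way as the fibrillar chains: 7 of 8 were higher and 1 lower in both nephron and hepatic organoids. The 8 markers summed to 811 and 1086 TPM in nephron, 1311 and 688 in hepatic, 36.7 and 66.9 in lung and 31.7 and 55.1 in cortical organoids, and to 156 and 156 TPM in hESC. Their part in the collagen differences was not tested.

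Each organoid type was also set against the mean of the other 3 in the same fit. Cortical organoids had 33 collagens called, 7 higher and 26 lower, where 51.4% of all genes were called. Lung organoids had 23, of which 2 were higher and 21 lower, where 48.8% of all genes were called. Hepatic organoids had 32, of which 28 were higher and 4 lower, where 40.6% of all genes were called. Nephron organoids had 22, of which 20 were higher and 2 lower, where 43.8% of all genes were called; with size factors they had 25, of which 19 were higher and 6 lower. Size factors lowered the all-gene median by 0.28 in the nephron comparison and raised it by 0.11 in the lung comparison. Besides COL3A1, genes called higher in hepatic organoids than in this mean were COL6A3 (log2 5.42 ± 0.21), COL5A1 (3.41 ± 0.28) and COL4A1 (2.84 ± 0.19), with limma adjusted p = 1.7e-06, 5.1e-05 and 1.7e-05. COL3A1 and COL5A1 were also high in nephron organoids, so their calls do not set hepatic organoids apart from nephron ones. The mean of COL3A1 was 2774.9 TPM in nephron and 1909.7 TPM in hepatic CTR organoids. Genes called higher in nephron organoids than in the mean of the other 3 were COL1A2 (log2 3.50 ± 0.25) and COL1A1 (3.19 ± 0.46), with limma adjusted p = 3.4e-05 and 0.001. Both type I chains were also high in hepatic organoids, where they were called higher than in hESC. Their calls therefore do not set nephron organoids apart from hepatic ones.

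The 6 collagen IV genes lie as 3 head-to-head pairs, COL4A1 with COL4A2, COL4A3 with COL4A4 and COL4A5 with COL4A6, each pair transcribed outward. The letters between the paired starts that the promoter windows of both genes cover are shown, so that the ratios given next can be read beside them. RefSeq starts on GRCh38.p14 lie 127 bases apart for COL4A1 and COL4A2, 419 for COL4A3 and COL4A4, and 380 for COL4A5 and COL4A6, for which RefSeq also has a COL4A6 start at 108438422 on chromosome X. The printed stretches are from RefSeq, plus strand; they span the starts of COL4A1 and COL4A2, and hold 82 and 121 bases of the longer distances between the starts of the other 2 pairs. They are printed with CCAAT (or its complement ATTGG) and the GC box GGGCGG (or CCGCCC) in capitals.
COL4A1 and COL4A2, chr13:110307158-110307283: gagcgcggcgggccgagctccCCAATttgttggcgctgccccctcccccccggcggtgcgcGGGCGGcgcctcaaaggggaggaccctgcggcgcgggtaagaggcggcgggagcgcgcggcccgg
COL4A3 and COL4A4, chr2:227164374-227164455: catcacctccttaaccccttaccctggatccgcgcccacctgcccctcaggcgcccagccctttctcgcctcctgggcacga
COL4A5 and COL4A6, chrX:108439588-108439708: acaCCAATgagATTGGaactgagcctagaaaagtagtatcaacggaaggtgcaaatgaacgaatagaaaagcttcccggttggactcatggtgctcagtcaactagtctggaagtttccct

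The COL4A1 and COL4A2 stretch was 80.2% G and C with 1 CCAAT and 1 GC box, the COL4A3 and COL4A4 stretch was 67.1% G and C with none of the motifs (the rest of the COL4A3 window held 2 GC boxes), and the COL4A5 and COL4A6 stretch was 44.6% G and C with 2 CCAAT motifs that face opposite ways. TATAAA was searched too and was in none of these stretches. On both strands of the 35116 RefSeq promoter windows (250 bases before to 50 after a start), CCAAT was in 34.6%, TATAAA in 11.53% and GGGCGG in 44.95%. Of the 32 collagen symbols with a window, 10 held CCAAT, 5 held TATAAA and 18 held GGGCGG. The other collagen symbols, COL1A1, COL1A2, COL2A1, COL3A1 and COL6A1 among them, had no window, so these counts do not cover them. A match describes letters and is not a measured binding site.

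The pairs were expressed at different ratios in different cell types. COL4A1 (chromosome 13, 110148963 to 110307233, minus strand) was at 33.7 and 36.4 TPM in nephron, 139 and 105 in hepatic, 16.3 and 10.7 in lung and 7.30 and 10.1 in cortical organoids, and at 28.8 and 32.3 TPM in hESC. COL4A2 was at 51.6 and 53.3 TPM in nephron, 121 and 84.1 in hepatic, 36.6 and 16.8 in lung and 28.4 and 36.4 in cortical organoids, and at 26.3 and 26.4 TPM in hESC. Hepatic organoids had the highest levels of both, while in cortical organoids the COL4A1 level was below that of hESC and the COL4A2 level above it. COL4A1 fell 3.28-fold in cortical (limma adjusted p = 0.00038) and 2.21-fold in lung organoids (adjusted p = 0.0048), rose 3.87-fold in hepatic organoids (adjusted p = 0.00028) and was not called in nephron organoids. COL4A2 rose 3.73-fold in hepatic (adjusted p = 0.0017) and 1.95-fold in nephron organoids (adjusted p = 0.032), and was not called in cortical or lung organoids.

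The ratio of COL4A1 to COL4A2 TPM was 0.654 and 0.683 in the nephron, 1.15 and 1.25 in the hepatic, 0.444 and 0.639 in the lung and 0.258 and 0.277 in the cortical CTR libraries, and 1.097 and 1.22 in CTR hESC. Over group means the ratio was lowest at 0.269 in cortical CTR organoids, had a median of 1.16, and was highest at 1.42 in Chip hepatic organoids. SPIN cortical organoids had 0.996 and 1.51, against 0.265 to 0.359 in the other WT cortical libraries. The 2 genes also overlap on opposite strands in GENCODE 29, so reads of the overlap may be counted for either. COL4A5 (chromosome X, 108439844 to 108697545, plus strand), a chain of kidney and smooth muscle basement membranes, was at 94.4 and 88.1 TPM in nephron, 111 and 101.2 in hepatic, 41.7 and 17.9 in lung and 112 and 159 in cortical organoids, and at 18.2 and 17.9 TPM in hESC. Its partner COL4A6 was at 43.9 and 34.2 TPM in nephron, 81.1 and 67.5 in hepatic, 35.7 and 16.9 in lung and 107 and 151 in cortical organoids, and at 13.6 and 13.8 TPM in hESC. Both were highest in cortical organoids, where COL4A1 was lowest. COL4A5 rose 7.05-fold and COL4A6 8.74-fold in cortical organoids (limma adjusted p = 0.00017 and 8.5e-05), and both were also called higher in nephron and hepatic organoids. Their ratio was 2.15 and 2.58 in nephron and 1.05 and 1.05 in cortical CTR libraries, and 1.34 and 1.302 in CTR hESC. COL4A3, which with COL4A4 and COL4A5 forms the network of the mature glomerulus, did not reach 1 TPM in any library.

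**Figure D3:**
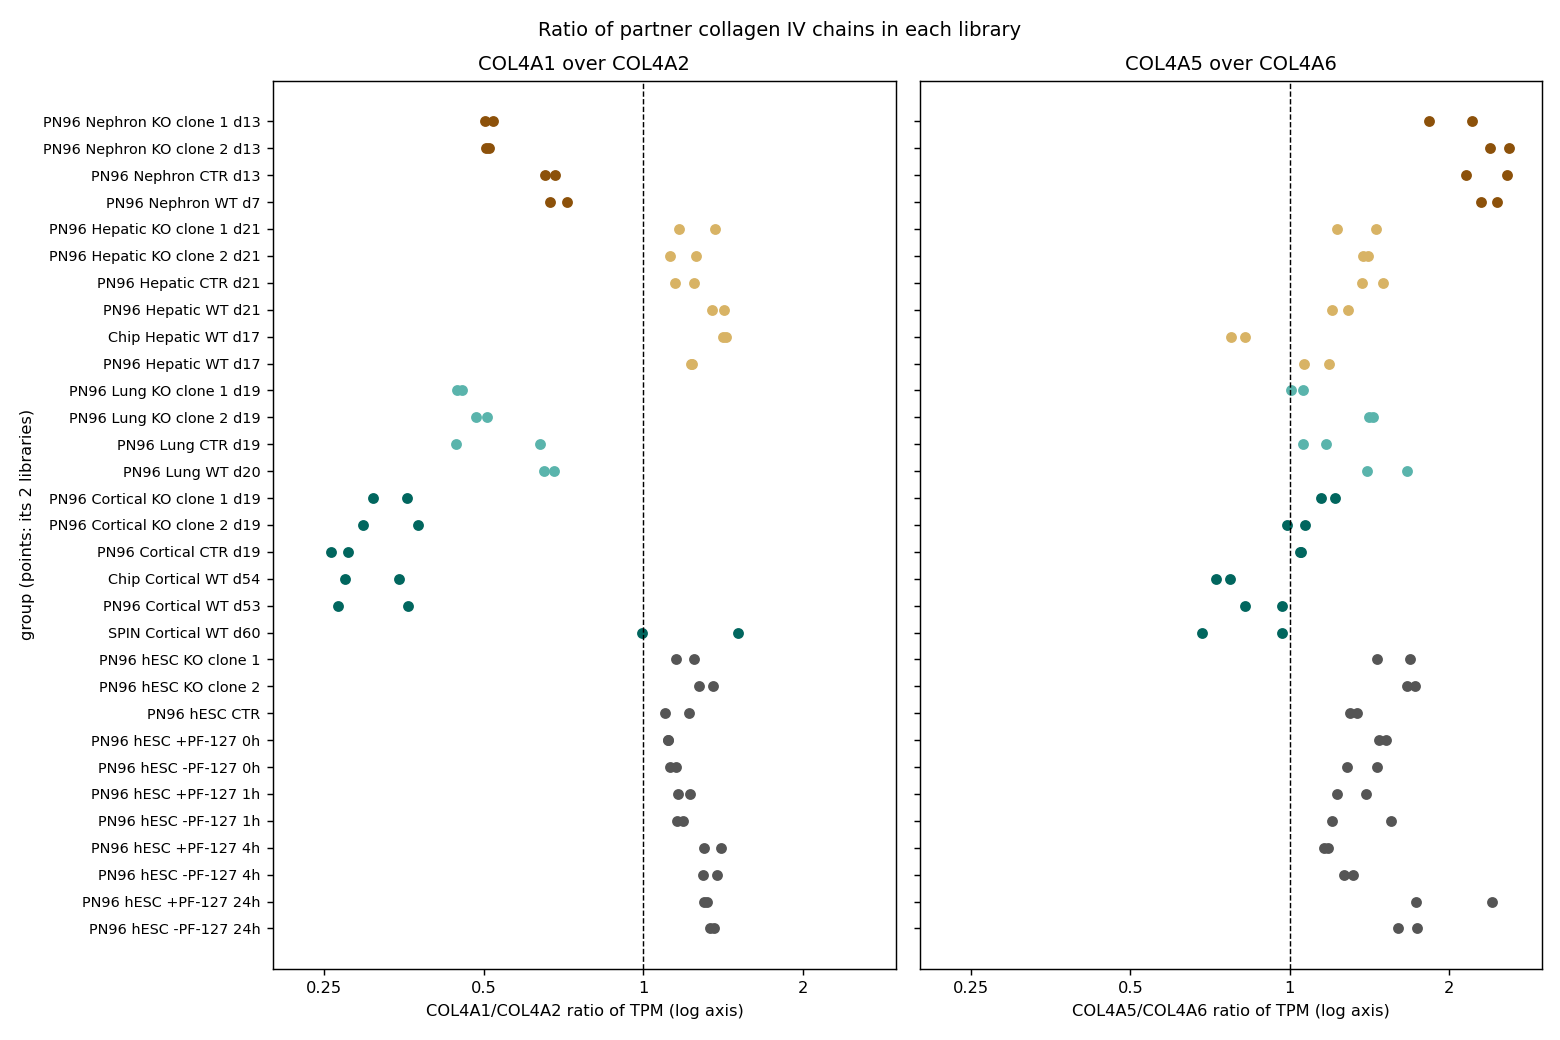
Ratio of COL4A1 to COL4A2 TPM and of COL4A5 to COL4A6 TPM in every library, grouped by cell type, format and genotype, on a log axis; each point is 1 library. The COL4A1 to COL4A2 ratio is below 0.4 in the PN96 and Chip cortical libraries and above 1 in the hESC and hepatic libraries, with the SPIN cortical pair at 0.996 and 1.51.

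The chains of type I collagen, which share a trimer, also stood at different ratios. COL1A1 to COL1A2 ranged over group means from 0.208 in cortical organoids of clone 1 to 3.93 in lung organoids of clone 1. In CTR libraries it was 0.985 and 1.22 in nephron, 1.75 and 1.95 in hepatic, 3.07 and 2.67 in lung and 0.289 and 0.710 in cortical organoids, and 2.13 and 2.29 in hESC. In CTR libraries COL1A1 was thus above COL1A2 in hESC, hepatic and lung libraries and below it in cortical ones. In WT cortical libraries the ratio was 0.777 and 1.34 in PN96, 1.11 and 0.706 in Chip and 0.204 and 0.243 in SPIN. These are ratios of RNA levels per length, and no protein was measured.

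Culture format was compared in WT cortical organoids. Between PN96 at day 53 and SPIN at day 60, 16 of 33 collagens were called, 12 higher and 4 lower in PN96, where 39.2% of all genes were called, so the collagen share was not far above the background. COL3A1 was at 3.93 and 9.52 TPM in PN96 and 228 and 2206 TPM in SPIN organoids. Both SPIN libraries were above both PN96 libraries, and they differed widely from each other. COL3A1 was 98.9-fold lower in PN96 (limma adjusted p = 0.0047) and COL14A1 10.1-fold lower (adjusted p = 0.039). COL6A1 was at 196 and 241 TPM in PN96 and 25.3 and 69.7 TPM in SPIN organoids, again without overlap, and was 5.06-fold higher in PN96 (adjusted p = 0.0068). COL9A3 was 5.94-fold higher (adjusted p = 0.0049), COL7A1 5.63-fold (adjusted p = 0.00099), COL18A1 5.27-fold (adjusted p = 0.0014), COL11A1 3.42-fold (adjusted p = 0.0019) and COL2A1 2.17-fold (adjusted p = 0.0092). COL1A1, COL1A2, COL4A1 and COL4A2 were not called.

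Other cell type markers moved with these cortical differences. The 8 mesenchyme markers summed to 52.5 and 52.3 TPM in PN96 and 185 and 787 TPM in SPIN libraries, with 1 called higher and 3 lower in PN96. The 5 hepatoblast markers summed to 2.74 and 0.953 TPM in PN96 and 82.2 and 1574 TPM in SPIN libraries, with 3 of 4 tested lower. The 4 endothelial markers summed to 1.302 and 0.596 TPM in PN96 and 14.5 and 86.3 TPM in SPIN libraries. The part of these cells in the collagen differences was not tested, and format and day (53 and 60) cannot be told apart. Without the first SPIN library 20 collagens were called, 11 higher and 9 lower, without the second 15, of which 14 were higher and 1 lower, and without either PN96 library 9. Between Chip at day 54 and PN96 at day 53, 0 of 33 collagens were called, where 0.088% of all genes were; 3 had an unadjusted p under 0.05 in limma.

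In WT hepatic organoids at day 17, 11 of 36 collagens were called between Chip and PN96, 1 higher and 10 lower in Chip, where 7.56% of all genes were called. The collagen median was -0.71 and the all-gene median -0.22 on the log2 scale. COL1A1 was at 193 and 191 TPM in Chip and 1099 and 557 TPM in PN96 organoids. The groups did not overlap, and the PN96 pair was the more widely spread. COL1A1 was 4.06-fold lower in Chip (limma adjusted p = 0.048), COL8A2, a network collagen of endothelium and cornea, 5.88-fold lower (adjusted p = 0.026), COL11A1 5.60-fold lower (adjusted p = 0.019) and COL16A1 4.12-fold lower (adjusted p = 0.023). COL3A1 was at 1085 and 1032 TPM in Chip and 2956 and 1082 TPM in PN96 organoids, not called (-0.76 ± 0.56, adjusted p = 0.4). COL10A1, the collagen of hypertrophic cartilage, was the only collagen called higher in Chip. It was at 8.21 and 11.9 TPM in Chip and 0.746 and 0.807 TPM in PN96, which is 6.13-fold higher (adjusted p = 0.019). COL10A1 lies within NT5DC1 on the opposite strand, and NT5DC1 was at 14.6 and 15.0 TPM in Chip and 14.1 and 14.8 TPM in PN96.

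How far the hepatic format result rested on single libraries could not be told. Leaving out 1 of the 4 Chip and day 17 PN96 libraries leaves a group of 1. The collagen calls were then lost, and so were nearly all calls over all genes. With size factors, which raised the all-gene median by 0.23, 7 collagens were called, 1 higher and 6 lower. Of 21 folding genes, 5 were lower in Chip, among them PLOD2 (-2.09 ± 0.19 on the log2 scale, limma adjusted p = 0.018), and of 13 processing genes 7 were lower. The mesenchyme markers summed to 379.7 and 355 TPM in Chip and 1347 and 575 TPM in PN96 libraries, with 0 of 8 called. Of the other marker lists, 1 of 4 endothelial markers was higher (CDH5) and 1 lower (KDR), 1 of 5 hepatoblast markers was higher (TTR), 1 of 3 lung and foregut markers was higher (FOXA2), 1 of 3 neuron markers was lower (STMN2) and 1 of 5 cartilage markers was lower (SOX9). The endothelial markers summed to 135 and 138 TPM in Chip and 241 and 184 TPM in PN96 libraries, and the hepatoblast markers to 5966 and 6304 TPM in Chip and 2921 and 5185 TPM in PN96 libraries. The part of these cells was not tested. Between days 21 and 17 in PN96, 0 of 36 collagens were called, where 0.101% of all genes were; 7 had an unadjusted p under 0.05 in limma. Between CTR and WT hepatic organoids at day 21, 1 of 36 collagens was called, where 3% of all genes were, so the count was near the background. A further limit is that 6 had an unadjusted p under 0.05 in limma. The called gene was COL7A1, at 17.5 and 21.5 TPM in CTR and 6.18 and 6.56 TPM in WT (2.76-fold higher in CTR, limma adjusted p = 0.02). In lung organoids of CTR (day 19) and WT (day 20), 0 of 36 were called, where 8.46% of all genes were, although 12 had an unadjusted p under 0.05 in limma.

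Loss of NEAT1 went with lower collagen RNA in nephron organoids. There 17 of 32 collagens were called over the 2 clones, 1 higher and 16 lower, where 7.23% of all genes were called and 5.05% were called lower. The collagen median was -0.67 and the all-gene median -0.04 on the log2 scale. All 46 rows summed to 2744 and 2762 TPM in clone 1 and 3459 and 3314 TPM in clone 2, against 6124 and 8326 TPM in CTR. All 4 knockout libraries were below both CTR libraries.

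The type III chain and both type I chains fell. COL3A1 was at 576 and 509 TPM in clone 1 and 1047 and 868 TPM in clone 2, against 2328 and 3222 TPM in CTR nephron organoids. All 4 knockout values were below both CTR values, and the fall was 3.81-fold (limma adjusted p = 0.0038). COL1A1 was at 248 and 242 TPM in clone 1 and 296 and 301 TPM in clone 2, against 669.8 and 956 TPM in CTR. COL1A1 fell 2.95-fold (adjusted p = 0.0046), with the 4 knockout values close together and the CTR pair higher and further apart. COL1A2 was at 328 and 310.4 TPM in clone 1 and 376 and 403 TPM in clone 2, against 679.9 and 786 TPM in CTR, a 2.07-fold fall (adjusted p = 0.0038). COL5A1 was at 61.3 and 62.9 TPM in clone 1 and 94.2 and 78.0 TPM in clone 2, against 172 and 317 TPM in CTR, a 3.17-fold fall (adjusted p = 0.013). Of the 9 fibrillar genes tested 6 fell and 1 rose.

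All 4 collagen VI genes tested fell. COL6A1 was at 226 and 218 TPM in clone 1 and 302 and 319 TPM in clone 2, against 514 and 742 TPM in CTR, a 2.35-fold fall (limma adjusted p = 0.0082). COL6A2 fell 2.69-fold (adjusted p = 0.0091) and COL6A6 2.85-fold (adjusted p = 0.018). The largest fold among the called genes belonged to COL21A1, a fibril-associated collagen of vessel walls, at 1.80 and 1.04 TPM in clone 1 and 5.01 and 2.29 TPM in clone 2, against 9.44 and 32.4 TPM in CTR. COL21A1 fell 5.72-fold (adjusted p = 0.032), and its CTR pair differed from each other by more than 3-fold. COL15A1, a basement membrane collagen of vessels and muscle, fell 4.03-fold (adjusted p = 0.017) and COL22A1 2.98-fold (adjusted p = 0.0094). COL4A1 fell 1.65-fold (adjusted p = 0.016), at 20.0 and 23.3 TPM in clone 1 and 19.3 and 20.8 TPM in clone 2, against 33.7 and 36.4 TPM in CTR. COL4A2 was at 38.4 and 46.5 TPM in clone 1 and 38.2 and 40.7 TPM in clone 2, against 51.6 and 53.3 TPM in CTR, and was not called (-0.35 ± 0.10, adjusted p = 0.084), although its groups did not overlap. The COL4A1 to COL4A2 ratio was 0.502 to 0.520 in the knockout libraries and 0.654 to 0.683 in CTR.

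Of the 32 collagens tested 6 had a change above 0, and COL2A1 was the only 1 called higher in this fit. It was at 382 and 442 TPM in clone 1 and 336 and 349.9 TPM in clone 2, against 219.8 and 276 TPM in CTR nephron organoids. Every knockout value was above every CTR value, and the rise was 1.52-fold (limma adjusted p = 0.027). Leaving out 1 library at a time left 6 to 15 collagens called; 6 were called without the second library of clone 2, 10 without the first, and none of those called was higher without the first CTR library, the second library of clone 1 or either library of clone 2. Clone 2 alone against CTR gave 5 calls. With size factors 16 were called, 1 higher and 15 lower.

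**Figure D4:**
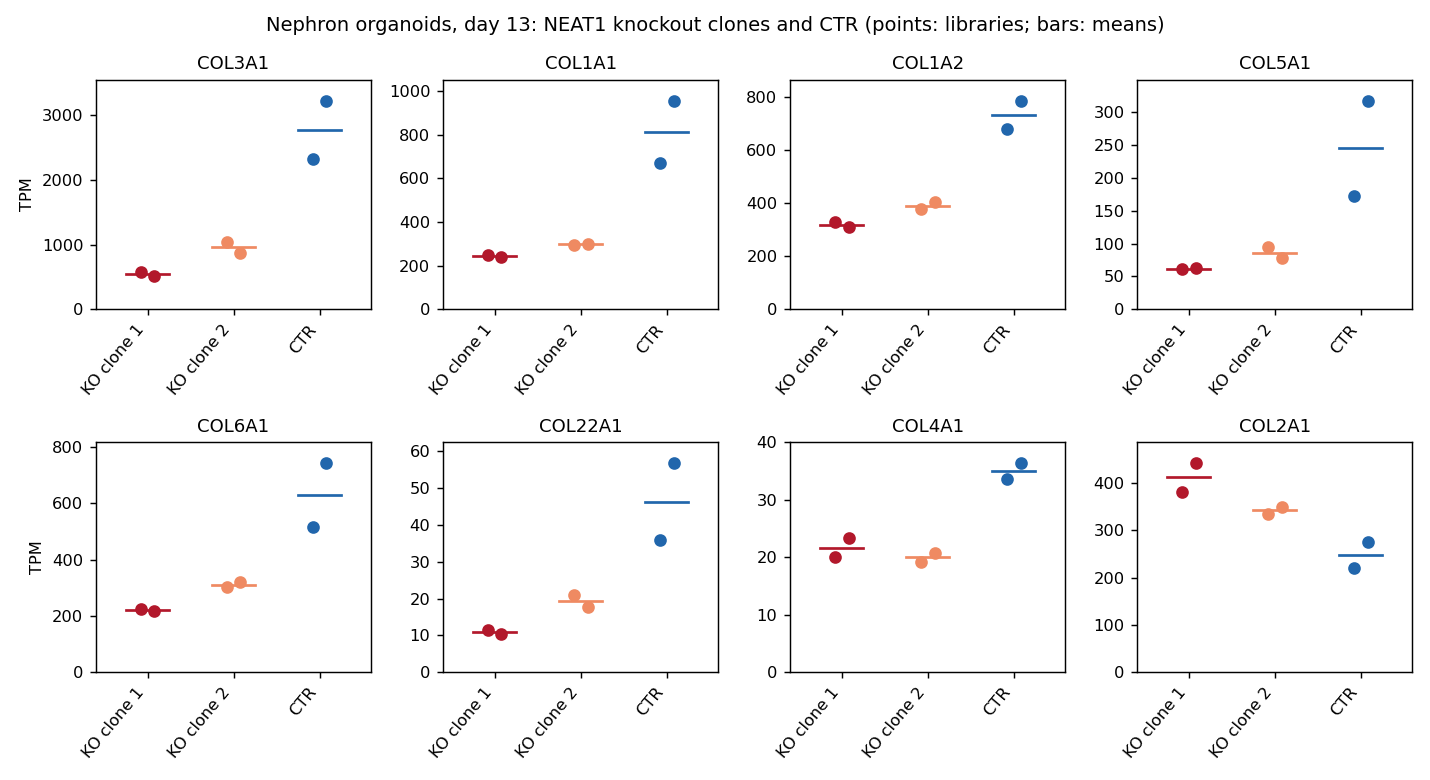
Level of 8 of the called collagens in each day 13 nephron organoid library, in TPM from 0, with clone 1 and clone 2 left of CTR; each point is 1 library and each bar a mean. All 4 knockout points lie above both CTR points for COL2A1 and below them for the other genes plotted.

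Markers of other cells moved with the nephron differences. The 4 endothelial markers were all called lower and summed to 30.2 to 71.3 TPM in the knockout libraries and 180.1 to 181 TPM in CTR, KDR alone being 4.41-fold lower (limma adjusted p = 0.0025). Of the 8 mesenchyme markers 3 were lower, with sums of 511 to 649 TPM in the knockouts and 811 to 1086 TPM in CTR; DCN fell 5.57-fold and LUM 3.88-fold, while PDGFRB was at 71.2 to 105 TPM in the knockouts and 69.9 to 73.6 TPM in CTR. Of the 4 neural crest markers 3 were higher, with sums of 9.93 to 56.2 TPM in the knockouts and 1.03 to 1.98 TPM in CTR. Of the 6 nephron markers PAX2 was higher, with sums of 144 to 214 TPM in the knockouts and 38.0 to 99.4 TPM in CTR. The part of these cells in the collagen result was not tested. Of collagen handling genes, 4 of 8 degradation genes fell, MMP2 2.17-fold (adjusted p = 0.0033), 3 of 12 processing genes fell, LOXL4 3.88-fold (adjusted p = 0.0081), 1 of 21 folding genes fell, CREB3L1 1.64-fold (adjusted p = 0.044), and 0 of 6 receptors were called.

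The authors' deposited tables, made with DESeq2 for each clone against CTR, listed the same comparison gene by gene. In the authors' deposited table for nephron clone 1, 5 collagens were called higher and 16 lower, where 12.4% of all genes were called. In the authors' deposited table for nephron clone 2, 2 were called higher and 11 lower, where 3.77% of all genes were called. The log2 fold changes with their SE in the authors' deposited tables were -2.83 ± 0.45 in clone 1 and -2.31 ± 0.44 in clone 2 for COL15A1, and -1.96 ± 0.40 and -1.46 ± 0.40 for COL5A1. They were -1.18 ± 0.17 in clone 1 and -0.86 ± 0.17 in clone 2 for COL1A2, and 0.75 ± 0.14 and 0.51 ± 0.14 for COL2A1, all called in both of the authors' deposited tables. COL3A1 was called in the authors' deposited table for clone 1 (-2.33 ± 0.65) and not for clone 2 (-1.49 ± 0.65); the difference between the clones in these tables was not tested. The 2 tables share the CTR libraries. In limma on TPM, 0 of 32 collagens were called between clone 2 and clone 1 in nephron organoids, where 0.0435% of all genes were; 10 had an unadjusted p under 0.05.

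In the other cell types no collagen was called over both clones. In knockout hESC 0 of 31 were called, where 0.6% of all genes were, and 7 had an unadjusted p under 0.05 in limma. In cortical organoids 0 of 23 were called (background 0.0722%, 4 unadjusted), in hepatic organoids 0 of 37 (background 0.00474%, 11 unadjusted) and in lung organoids 0 of 28 (background 0%, 0 unadjusted). The authors' deposited tables called COL4A2 lower and COL4A5 higher in both clones of hESC, by -0.27 ± 0.08 and 0.40 ± 0.09 in clone 1 and by -0.39 ± 0.08 and 0.34 ± 0.09 in clone 2 on the log2 scale, where 2.19% and 7.65% of all genes were called in these tables. In clone 2 of hESC the authors' deposited table also called COL26A1 lower (-0.40 ± 0.12). The authors' deposited tables also called COL6A1 lower in cortical clone 2 (-0.40 ± 0.12), where 2.25% of all genes were called, and no collagen in cortical clone 1 or in lung organoids, where 0.698% of all genes, and 0.0552% and 0.0894%, were called.

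Averaged over the 5 cell types in 1 fit of 30 libraries, 3 of 21 collagens were called, all lower, where 1.18% of all genes were called; with size factors the share of calls that were higher moved by 13.8 points over all genes, and the 3 members kept their calls. COL6A1 fell by 1.37-fold (limma adjusted p = 0.00052), COL22A1 by 1.44-fold (adjusted p = 0.0049) and COL6A2 by 1.299-fold (adjusted p = 0.039). The knockout effect differed between cell types, by the test of the interaction, for 7 of the 21, where 2.22% of all genes were called. COL1A1 and COL1A2 were tested and not among them. COL3A1 did not pass the filter in hESC and was not tested. For these chains the nephron falls were therefore not shown to differ from the changes in other cell types. COL6A1 changed by -1.23 ± 0.14 in nephron, -0.71 ± 0.20 in hepatic, 0.08 ± 0.12 in lung and -0.32 ± 0.10 in cortical organoids, and by -0.08 ± 0.10 in hESC (log2 scale, SE), with the nephron change called. COL5A1 changed by -1.66 ± 0.23 in nephron, -0.03 ± 0.27 in hepatic, 0.36 ± 0.26 in lung and 0.03 ± 0.22 in cortical organoids, and by -0.02 ± 0.15 in hESC. COL26A1, whose change was largest in hepatic organoids, was at 37.4 and 51.1 TPM in clone 1 and 60.2 and 62.1 TPM in clone 2, against 104 and 105 TPM in CTR hepatic organoids. All 4 of these hepatic knockout values were below both CTR values.

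**Figure D5:**
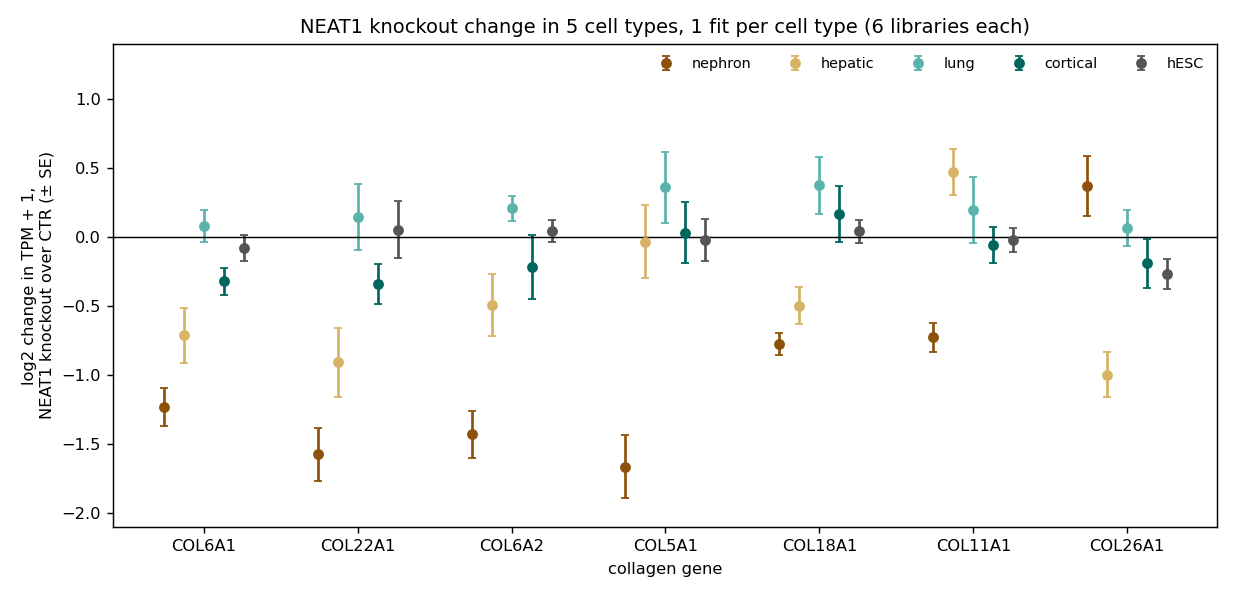
Knockout change of each collagen named for the interaction, as log2(TPM + 1) of the 2 clones over CTR, in each of the 5 cell types; points are estimates and bars SE. The nephron point is the lowest for COL6A1, COL22A1, COL6A2, COL5A1, COL18A1 and COL11A1, and the hepatic point for COL26A1.

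Hepatic organoids of the 2 clones overlapped CTR in COL3A1, and those of clone 1 lay above it in COL1A1. COL3A1 was at 4563 and 2066 TPM in clone 1 and 1765 and 724 TPM in clone 2, against 2414 and 1405 TPM in CTR. COL1A1 was at 1305 and 855 TPM in clone 1 and 589 and 264 TPM in clone 2, against 531 and 461 TPM in CTR. For COL1A1 the clone 2 pair straddled the CTR pair. The first library was the higher of its pair in both genes, in both clones and in CTR alike. Between clone 2 and clone 1 in hepatic organoids, a comparison added after the values were seen, COL3A1 differed by -1.44 ± 0.56 on the log2 scale (limma adjusted p = 0.48) and 0 of 37 collagens were called, where 0% of all genes were; 15 had an unadjusted p under 0.05. Averaged over the cell types, 0 of 21 were called between the clones, where 0.536% of all genes were, and 3 had an unadjusted p under 0.05. The hepatoblast markers summed to 38820.0 and 23768 TPM in clone 1 and 24357 and 5054 TPM in clone 2, against 7962 and 9671 TPM in CTR, and their part was not tested. The authors' deposited table for hepatic clone 1 called COL24A1 higher (3.63 ± 0.61) and COL26A1 lower (-1.25 ± 0.27), where 2.6% of all genes were called. The authors' deposited table for hepatic clone 2 called COL2A1 higher (1.66 ± 0.34) and 5 collagens lower, among them COL6A3 (-1.56 ± 0.46), COL4A2 (-1.43 ± 0.39) and COL4A1 (-1.41 ± 0.37), where 2.66% of all genes were called.

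In hESC, PF-127 went with lower type I collagen RNA at 24 hours. COL1A1 was at 32.4 and 33.3 TPM with PF-127 and 59.1 and 56.0 TPM without it at 24 hours. The groups did not overlap, and the fall was 1.73-fold (limma adjusted p = 0.0018). COL1A2 was at 15.1 and 15.2 TPM with PF-127 and 21.7 and 19.6 TPM without it, a 1.34-fold fall (adjusted p = 0.018). These were the 2 of 30 collagens called, where 1.23% of all genes were. COL6A1 was at 115 and 151 TPM with PF-127 and 104 and 102 TPM without it, not called (adjusted p = 0.19), and 0 of the 21 folding and 0 of the 13 processing genes tested were called. The fit shares its spread over all 16 libraries of the time course; with the 4 libraries of 24 hours alone, 0 collagens were called, and without the first library lacking PF-127 or the second with it at 24 hours, 1 was. Without the first library with PF-127 at 24 hours 2 were called, 1 of them lower and the other higher.

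At the earlier times no collagen was called: 0 of 30 at 0 hours (background 0%, 0 with an unadjusted p under 0.05 in limma), at 1 hour (background 0%, 2 unadjusted) and at 4 hours (background 0.213%, 6 unadjusted). COL1A1 was at 92.1 and 94.2 TPM with PF-127 and 100.5 and 85.5 TPM without it at 0 hours. It was at 66.7 and 68.4 TPM with PF-127 and 74.4 and 79.4 TPM without it at 1 hour, and at 80.0 and 65.3 TPM with PF-127 and 89.1 and 83.6 TPM without it at 4 hours. The pairs overlapped at 0 hours and did not at 1 and 4 hours. Averaged over the 4 times COL1A1 was the only collagen called, 1.24-fold lower (adjusted p = 0.027), where 0.207% of all genes were called; the call was lost without most single libraries. A difference of the PF-127 effect between times was called for 0 of 30 collagens, where 0.187% of all genes were, and 7 had an unadjusted p under 0.05 in limma.

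Collagen RNA was lower at 24 hours than at 0 hours in hESC. Between 24 and 0 hours, over libraries with and without PF-127, 22 of 30 collagens were called, 1 higher and 21 lower at 24 hours, where 39.4% of all genes were called and 14.4% were called lower. The collagen median was -0.41 and the all-gene median 0.06 on the log2 scale. With size factors 23 were called, 0 higher and 23 lower, and the share of calls that were higher fell by 13 points over all genes. The sum over the 46 rows was 381 to 444 TPM at 24 hours and 581 to 635 TPM at 0 hours. COL2A1 fell 2.56-fold (limma adjusted p = 1.8e-06), COL9A3 2.22-fold (adjusted p = 2e-06), COL1A1 2.11-fold (adjusted p = 7.2e-07) and COL11A1 2.06-fold (adjusted p = 3.1e-06). COL1A2 fell 1.62-fold, COL4A1 1.31-fold and COL4A2 1.53-fold (adjusted p = 2.4e-06, 0.00025 and 2.1e-05). COL4A5 was the collagen called higher, by 1.14-fold (adjusted p = 0.035), and lost its call with size factors. Of 21 folding genes 1 was higher and 9 lower, and of 13 processing genes 2 were higher and 6 lower. The 4 endothelial markers, which in hESC come mostly from KDR, summed to 111 to 128 TPM at 24 hours and 179 to 184 TPM at 0 hours, and their part was not tested.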

How the data were processed

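PolyA RNA was sequenced from 62 libraries of WIBR3 cells and organoids; per the labels' protocols, total RNA was extracted with TRIzol, selected on poly-T beads and made into libraries with a VAHTS Universal V6 kit for Illumina. Per the submitters' processing notes the authors used FastQC 0.11.9, Trim Galore 0.6.7, cutadapt 4.1, STAR 2.7.10a, featureCounts 2.0.1, DESeq2 1.36.0 and R 4.2.0, with GRCh38; annotation and strand setting are not given in the sources used here. The authors deposited 1 table of TPM per gene and library, in which each library sums to the same total. The authors also deposited 10 DESeq2 tables, 1 for each clone and cell type, with log2 fold changes and their SE on the log2 scale, a Wald score, and p-values with adjusted p-values. NEAT1 is negative in these tables, so the authors' deposited log2 fold changes run clone over CTR.

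TPM were tested with limma 3.58.1 (R 4.3.3, trended empirical Bayes) on log2(TPM + 1), two-sided, for genes at 1 TPM or more in at least 2 libraries of the fit (for fits over all cell types, in each of the 5), with Benjamini-Hochberg adjustment over all genes tested and calls under 0.05. Each group is 2 libraries. The tests were checked on simulated data. Named are up to 8 called collagens with the largest change in a comparison, the chains COL1A1, COL1A2, COL3A1, COL2A1, COL4A1 and COL4A2 and chains of 1 trimer; of other lists, up to 3 called genes. The collagen genes, gene lists and tests were chosen with earlier results of these data known. Figures and summaries were made with Python 3.11.15, pandas 2.3.3, numpy 2.4.6, scipy 1.17.1 and matplotlib 3.10.9. Positions are from GENCODE 29 (GRCh38), and promoter letters from RefSeq. Alternatives were a pseudocount of 0.1, no filter or a filter of 5 TPM, size factors, a replicate block, narrower or wider fits, each clone alone and leaving out each library. The replicate numbers were not taken to pair the libraries, since in no fit did every pair of groups deviate together. A pairing limited to some groups, such as those of 1 cell type, was not excluded by this. In the knockout fit the highest correlation of such deviations between 2 groups was 0.323.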

Additional observations from a re-analysis of the deposited data

Results flagged for a closer look

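For 7 collagens the effect of the NEAT1 knockout differed between the 5 cell types, by the interaction test in limma over 30 libraries, where 2.22% of all genes were called. The adjusted p-values were 0.0066 for COL6A1, 0.0093 for COL22A1, 0.013 for COL6A2, 0.017 for COL5A1, 0.02 for COL18A1, 0.036 for COL11A1 and 0.042 for COL26A1. Their changes are on the log2(TPM + 1) scale with SE. COL22A1 changed by -1.57 ± 0.19 in nephron, -0.91 ± 0.25 in hepatic, 0.14 ± 0.24 in lung and -0.34 ± 0.15 in cortical organoids, and by 0.05 ± 0.21 in hESC. COL6A2 changed by -1.43 ± 0.17 in nephron, -0.49 ± 0.23 in hepatic, 0.21 ± 0.09 in lung and -0.22 ± 0.23 in cortical organoids, and by 0.05 ± 0.08 in hESC. Both were called lower in nephron organoids and in no other cell type. COL18A1 changed by -0.78 ± 0.08 in nephron, -0.50 ± 0.13 in hepatic and 0.38 ± 0.21 in lung organoids. COL11A1 changed by -0.72 ± 0.11 in nephron and 0.47 ± 0.17 in hepatic organoids. COL26A1 changed by 0.37 ± 0.22 in nephron and -0.999 ± 0.16 in hepatic organoids, and neither change was called in its own cell type. How many collagens pass this test varied from 2 without the second nephron CTR library and 3 without the second library of nephron clone 2 to 16 without the first lung CTR library. Groups of 2 libraries are too small for a check of single outlying samples.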

How the results depend on the processing

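Each of 29 counts of called collagens was repeated under alternative settings. Of these 236 repeats, 209 stayed within 1.5 times the main count and 27 did not. Single collagens entered as 91 results, each a called gene with 1 of the largest changes in its comparison, for which a reversal is unlikely. Of their 611 repeats under alternative settings, 561 kept their side of the threshold, 50 lost their call and 0 changed direction. The cause of these changes was not tested, beyond the smaller number of libraries where libraries were left out. Leaving out single libraries gave 6 to 13 calls for lung organoids against hESC, 9 to 20 for cortical PN96 against SPIN, 0 to 1 for cortical Chip against PN96, 0 to 14 for hepatic Chip against PN96, 0 to 2 for hepatic CTR against WT and 0 to 4 for lung CTR against WT. For the knockout it gave 6 to 15 calls in nephron, 0 to 1 in hepatic and 0 to 4 in lung organoids, 2 to 5 for the average over cell types and 2 to 16 for the interaction. For PF-127 it gave 1 to 2 calls at 24 hours, 0 to 1 for the average over times and 0 to 1 for the interaction with time. Hepatic Chip against PN96 gave 4 calls with no filter and 7 with size factors. Lung CTR against WT gave 1 call with a pseudocount of 0.1, with a filter of 5 TPM, with size factors and with the replicate block. The knockout gave 1 call in hESC with a filter of 5 TPM, 5 in nephron organoids with clone 2 alone, 5 in hepatic organoids in 1 fit of all 30 libraries, and 1 for the average with the knockout libraries as 1 group. PF-127 at 24 hours gave 0 calls with its 4 libraries alone.

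With the replicate block, the other counts stayed within 1.5 times, such as 16 in knockout nephron organoids and 15 for hepatic Chip against PN96. The replicate numbers are shared by all groups but say nothing of a shared culture, and in the fits checked deviations of equal numbers correlated above 0.1 in 3 of 105 pairs of groups for the knockout, 0 of 28 for PF-127, 0 of 10 for the CTR cell types, 0 of 3 for cortical format, 1 of 3 for hepatic format and 2 of 6 for CTR against WT. Depth cannot be read from TPM, so the precision of low values is unknown.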

Other observations

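Nephron organoids of genotype WT were sampled at day 7, in no comparison of the study's design used here. Their collagens summed to 1724 and 1751 TPM, with COL1A2 the most abundant at 334 and 320.1 TPM (18.8% of the sum) and COL2A1 next at 234 and 338 TPM (16.4%). COL1A1 was at 76.2 and 84.7 TPM, COL3A1 at 32.2 and 32.9 TPM and COL6A1 at 105 and 95.0 TPM. Of the collagen IV chains COL4A1 was at 63.8 and 62.7 TPM and COL4A2 at 88.7 and 93.9 TPM. Day and genotype label both differ from the day 13 CTR libraries, so no comparison is made.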
